A study of Sus scrofa with 6 samples.

Results

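The genes described here encode enzymes that salvage nucleosides and bases and enzymes that pass phosphate groups between nucleotides. They were chosen by name, with results of these arrays known. A probe set, the group of short probes that measures 1 transcript, was taken wherever its platform annotation gave exactly 1 of 10 gene symbols. This gave 7 probe sets for 6 genes, namely CDA, HPRT1, CMPK1, NME1, NME2 and IMPDH2 (with 2 probe sets), among 6765 named genes and 23999 probe sets. No probe set carried the symbol of the remaining 4 genes, UPP1, TYMP, UCK2 and UMPS, which were not analysed here. RNA came from IPEC-1, a non-transformed epithelial cell line of the small intestine of newborn piglets, grown on porous membranes as air–liquid interface culture (ALI), with only a thin film of medium on the apical side, or as submerged culture (SMC), under a column of medium. The labels name no other treatment. Both groups ended in serum-free medium and held 3 GeneChip Porcine Genome Arrays each. Each group held 1 array from each of the passages P109, P111 and P113 of this 1 cell line. Without a passage block the p-values rest on the spread between these passages, and with it on that of the ALI minus SMC differences. The program limma draws each such spread toward that of all probe sets. A free-text label of all 6 samples names liver, whereas their titles and cell line name intestinal cells, and the titles were followed.

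Cells make pyrimidine and purine nucleotides from small precursors, or recover them from nucleosides and bases that are released when RNA and DNA are broken down. Salvage spares energy, and rapidly renewing tissues such as the intestinal epithelium are known to use it along with synthesis from precursors. Nucleoside monophosphate and diphosphate kinases then raise the products of either route to the triphosphates that enter RNA, DNA and activated sugars and lipids.

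All values are on a log2 scale as the table gave them, where 1 unit is a doubling. Levels of different probe sets were set side by side only to choose a gene's probe set and to check background, cell type and RNA integrity. Fold changes are ALI relative to SMC, and adjusted p-values came from limma with the Benjamini-Hochberg method over all 23999 probe sets. Medians of the arrays ran from 6.33 to 6.38. None of the 7 probe sets lay in the lowest 25% of the values of any array, a range taken here as open to background. The epithelial keratin KRT8 and the adhesion molecule EPCAM had mean log2 values of 13.66 and 13.39 in ALI and 13.54 and 13.32 in SMC cells. Of 14 epithelial markers 2, the enterocyte marker FABP2 and the tight junction gene TJP1, lay in the lowest 25% on all 6 arrays. So did 4 of 10 immune markers, PTPRC among them, 3 of 8 endothelial markers, CDH5 among them, and 3 of 11 markers of fibroblasts and smooth muscle. The immune marker CD3D (5.88 in ALI and 5.65 in SMC cells) and the endothelial marker PECAM1 (7.14 and 7.64) lay there on no array. The same held for the fibroblast and smooth muscle markers TAGLN (10.118 in ALI and 10.175 in SMC cells) and PDGFRB (7.55 and 8.05). The gap between 3′ and 5′ control probe sets of actin, GAPDH and EF1A, a sign of RNA integrity, averaged 0.941 to 1.15 log2 units over 6 pairs in the ALI arrays and 0.745 to 0.784 in the SMC arrays. The groups did not overlap in this gap, the 6 single pairs differed between them by -0.162 to 0.902, and its part in the results was not tested. Over all 10 porcine control pairs the gap was 0.536 to 0.824 in ALI and 0.547 to 0.705 in SMC arrays, and the groups overlapped. Among these 10 pairs that of IRP differed most, by -1.17 (ALI minus SMC), and the others differed by -0.162 to 0.902.

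CDA, the cytidine deaminase that converts cytidine and deoxycytidine to uridine and deoxyuridine, had the largest difference among the 7 probe sets. Its log2 values were 7.44, 7.92 and 6.80 in ALI and 9.23, 8.98 and 8.55 in SMC cells at passages P109, P111 and P113. All 3 ALI arrays lay below all 3 SMC arrays, with 0.63 log2 units between the highest ALI and the lowest SMC array. CDA fell by 1.53 on the log2 scale (standard error 0.28, adjusted p = 0.0362), to 34.5% of the SMC level (95% confidence interval 22.1 to 53.9%). The mean was 7.39 ± 0.560 in ALI cells and 8.92 ± 0.346 in SMC cells (SD, n = 3 each). Within the passages the difference was -1.80, -1.06 and -1.74, and ALI replicate 2, of P111, was the highest of the ALI arrays. With passage as a block the standard error fell to 0.155, and the adjusted p was 0.00188. The call was lost without ALI replicate 1 (adjusted p = 0.128), SMC replicate 1 (0.107) or SMC replicate 2 (0.168), and held without the other arrays.

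HPRT1, the X-linked phosphoribosyltransferase that returns hypoxanthine and guanine to the nucleotide pool, was lower in ALI cells as well. Its log2 values were 9.72, 9.79 and 9.86 in ALI and 10.58, 10.27 and 10.43 in SMC cells. The groups did not overlap, and the lowest SMC array stood 0.41 log2 units above the highest ALI array. HPRT1 fell by 0.63 on the log2 scale (standard error 0.11, adjusted p = 0.0348), to 64.5% of the SMC level (95% confidence interval 53.8 to 77.3%). ALI cells averaged 9.79 ± 0.0730 and SMC cells 10.42 ± 0.154 (SD, n = 3 each). Per passage the difference was -0.86, -0.47 and -0.56. The gene is often taken as a reference for RNA measurements, and here it passed the test on all 6 arrays but not without any 1 of them (adjusted p = 0.0504 without ALI replicate 3, 0.0807 to 0.142 without ALI replicate 1 or 2 or any SMC replicate).

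CMPK1, the kinase that adds the second phosphate to UMP and CMP, showed the smallest of the 3 called differences and the smallest spread over the SMC arrays. Its log2 values were 9.74, 9.79 and 9.89 in ALI and 10.33, 10.33 and 10.38 in SMC cells, and the 3 SMC arrays spanned 0.06 log2 units. CMPK1 fell by 0.54 on the log2 scale (standard error 0.10, adjusted p = 0.0347), to 68.8% of the SMC level (95% confidence interval 58.9 to 80.3%). ALI cells averaged 9.81 ± 0.0769 and SMC cells 10.35 ± 0.0323 (SD, n = 3 each). The groups were separate, with 0.43 log2 units between them. The passages gave -0.59, -0.54 and -0.49, closer to each other than those of CDA or HPRT1. The call held without ALI replicate 3 (adjusted p = 0.0450) and was lost without ALI replicate 1 or 2 or any SMC replicate (0.0909 to 0.142).

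**Figure D1:**
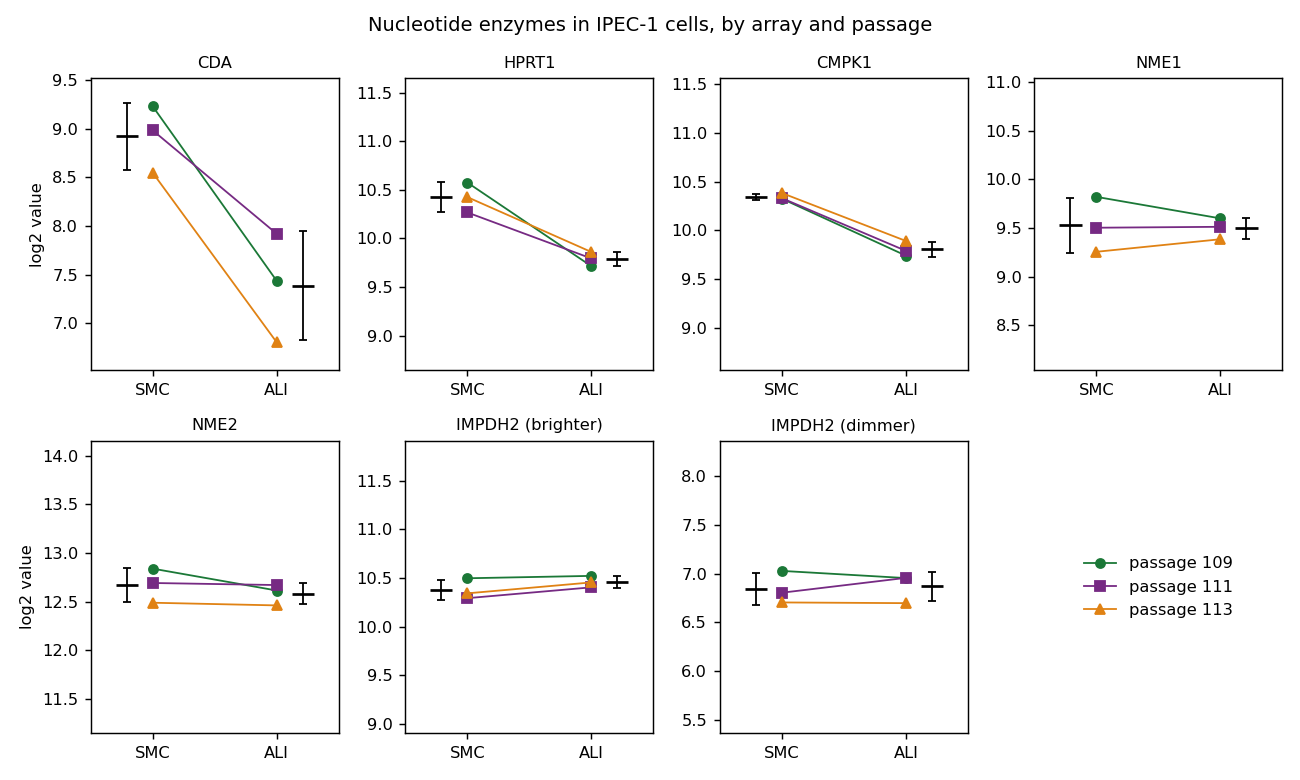
Log2 value of each of the 7 probe sets in SMC and ALI cells (every panel spans 3 log2 units). A line joins the arrays of 1 passage, and bars beside the points give the group mean ± SD of 3 arrays. CDA, HPRT1 and CMPK1 went down in each passage, while the arrays of NME1, NME2 and both IMPDH2 probe sets overlapped between the groups.

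NME1 and NME2 encode the main cytosolic nucleoside diphosphate kinases, which move the third phosphate between nucleotides. The genes lie next to each other in the RefSeq annotation of the pig and have similar coding sequences, and whether their probe sets also bind the other transcript was not tested. NME1 had log2 values of 9.60, 9.51 and 9.39 in ALI and 9.82, 9.50 and 9.26 in SMC cells. The arrays overlapped, and P109 gave -0.22 whereas P111 and P113 gave 0.01 and 0.13. The log2 fold change of NME1 was -0.03 (95% confidence interval -0.38 to 0.32, adjusted p = 0.959), and its sign turned to 0.02 after quantile normalization.

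NME2 had log2 values of 12.61, 12.67 and 12.46 in ALI and 12.84, 12.69 and 12.49 in SMC cells. Its log2 fold change was -0.09 (95% confidence interval -0.37 to 0.19, adjusted p = 0.791), with -0.22 at P109 and -0.02 and -0.03 at P111 and P113. Its arrays overlapped between the groups, and NME2 did not pass the test.

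IMPDH2, the dehydrogenase that commits IMP to guanine nucleotides, was measured by 2 probe sets. The brighter one had log2 values of 10.52, 10.41 and 10.46 in ALI and 10.50, 10.29 and 10.34 in SMC cells. Its fold change on the log2 scale was 0.08 (95% confidence interval -0.15 to 0.32, adjusted p = 0.772). Its differences per passage were 0.02, 0.11 and 0.11. The dimmer one had 6.95, 6.96 and 6.70 in ALI and 7.03, 6.80 and 6.70 in SMC cells. Here the fold change was 0.02 on the log2 scale (95% confidence interval -0.27 to 0.32, adjusted p = 0.958). Both probe sets overlapped between the groups and neither passed the test. The dimmer probe set turned to -0.05 without SMC replicate 3.

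Of the 7 probe sets, 3 were called lower in ALI cells and 0 were called higher by limma. Over all probe sets, 1.23% were called lower and 0.663% were called higher (1.9% in either direction). At an unadjusted p under 0.05 the counts were again 3 lower and 0 higher of the 7, against 7.57% and 6.77% of all probe sets. With passage as a block the same 3 were called lower, against 3.32% of all probe sets, and 0 were called higher, against 2%. The methods' t-test called 3 of the 7 lower without adjustment, against 5.93% of all probe sets. After Benjamini-Hochberg adjustment it called 0 of the 7, and 0 of all 23999 probe sets (0%) were lower by it. All ALI arrays lay below all SMC arrays for 9.27% of all probe sets and above them for 10.3%, against 3 and 0 of the 7. CDA and HPRT1 passed a fold change of 1.5, and CMPK1 did not. The probe sets of CDA, HPRT1, CMPK1 and NME2 were lower in ALI cells in each of the 3 passages, which was so for 18.5% of all probe sets, and the brighter probe set of IMPDH2 was higher in each, which was so for 22.7%. The genes were chosen with results of these arrays known, and these counts describe them.

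**Figure D2:**
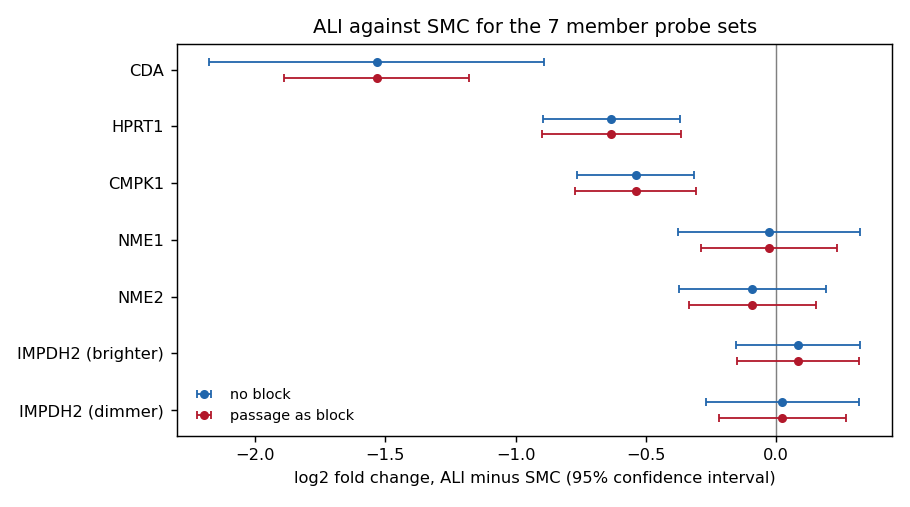
Log2 fold change, ALI minus SMC, of the 7 probe sets with 95% confidence intervals, without a block (blue) and with passage as a block (red). The intervals of CDA, HPRT1 and CMPK1 lie below 0 in both fits, and those of NME1, NME2 and IMPDH2 include 0. With the block the interval of CDA narrows most, while those of HPRT1 and CMPK1 widen slightly.

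The passage was also compared across both culture types. The log2 value of CDA at P113 was below that at P109 by a similar amount in both, with differences of -0.63 in ALI and -0.68 in SMC cells. For NME1 these differences were -0.21 and -0.56, and for NME2 -0.15 and -0.35. CMPK1 had 0.15 and 0.06, and HPRT1 had 0.15 in ALI and -0.15 in SMC cells. A slope per passage number, fitted by limma beside the culture type, was -0.16 log2 units for CDA (adjusted p = 0.337) and -0.10 for NME1 (adjusted p = 0.284), and 6 of the 7 slopes were below 0. None of the 7 passed, and neither did any other probe set (0 of 23999 called, 0%), while 3 of the 7 and 13.3% of all probe sets had an unadjusted p under 0.05.

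Over the 6 arrays, the genes whose log2 values ran most alike with CDA were SPP1 (Pearson's r = 0.996), AKAP2 (0.995) and RPL26 (0.994), out of 6764 other genes. HPRT1 ran most alike with MIF (r = 0.997), PGM1 (0.996) and IGFBP2 (0.993). For CMPK1 these were CYSTM1 (r = 0.997), RDX (0.994) and SNX5 (0.989). The 6 arrays share the split into 2 culture types and 3 passages, so that such coefficients describe these arrays only. Among the 3 enzymes themselves, r was 0.959 for HPRT1 with CMPK1, 0.852 for CDA with HPRT1 and 0.823 for CDA with CMPK1. A high r does not give the size of a change. The log2 fold changes of the genes named as most alike ran from -1.74 (AKAP2) to -0.17 (RPL26).

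The other genes of nucleotide metabolism were grouped into 11 lists by pathway step, and 46 of the 87 listed genes beside the members had a probe set. Of the 46, 1 was lower and 0 were higher in ALI cells, against 1.51% and 1.02% of all genes, and at an unadjusted p under 0.05 the counts were 6 lower and 7 higher of the 46, against 8.91% and 7.1% of all genes. Their median log2 fold change was 0.05, and that of all genes was 0.01. With passage as a block, 2 of them were lower and 3 were higher, against 3.75% and 2.25% of all genes.

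ENTPD4 was the called gene, 1 of 4 measured on the list of extracellular nucleotide hydrolases, although the enzyme itself is known from the Golgi and lysosomes. It fell by 0.71 on the log2 scale (standard error 0.13, adjusted p = 0.0354). ALI cells averaged 7.01 ± 0.205 and SMC cells 7.72 ± 0.0978 (SD, n = 3 each), and the second probe set gave -0.53 (adjusted p = 0.0945). The call held without ALI replicate 2 and was lost without ALI replicate 1 or 3 or any SMC replicate (adjusted p = 0.0602 to 0.168).

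In purine synthesis, 0 of 7 measured genes were called. The entry enzyme PPAT had a log2 difference of 0.51 (adjusted p = 0.134, with the block 0.0273), and that of PAICS was 0.49 (adjusted p = 0.349). The second probe set of PAICS gave 0.09 (adjusted p = 0.802). Among 6 genes of the branch from IMP to adenine and guanine nucleotides, ADSSL1, which starts the step to AMP, had 0.68 (adjusted p = 0.0602, with the block 0.0159), while its second probe set gave 0.21 (adjusted p = 0.540). The related ADSS had -0.25 (adjusted p = 0.304) with all arrays in the lowest 25%. Of 4 measured genes of purine salvage, 1 was called, HPRT1, and the median of the 4 was -0.02.

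Of 5 genes of purine breakdown and nucleotidases, 0 were called. NT5C3A, a pyrimidine nucleotidase that removes the phosphate from CMP and UMP, had a log2 difference of -0.54 (adjusted p = 0.10, with the block 0.0375), and AMPD1 had 0.40 (adjusted p = 0.0911) with all arrays in the lowest 25%. NT5C3A was called without ALI replicate 3 (log2 fold change -0.65, adjusted p = 0.0483).

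Among 4 genes of pyrimidine salvage and deamination, CDA was the called one, and UCK1, TK2 and DCTD did not pass the test, with log2 differences of 0.12, 0.21 and -0.0017. For pyrimidine synthesis from aspartate, CTPS1, which aminates UTP to CTP, was the 1 gene measured of 5, with a log2 fold change of -0.29 (adjusted p = 0.737) that ranged from -0.62 to -0.03 when single arrays were left out. In pyrimidine breakdown, 3 of 3 measured genes had a log2 fold change above 0 and 0 were called. DPYD, the dehydrogenase that starts the breakdown of uracil and thymine, had 0.98 (standard error 0.26, adjusted p = 0.117, with the block 0.00653), and UPB1 had 0.29 (adjusted p = 0.276) with all arrays in the lowest 25%. DPYD was called without ALI replicate 2 (log2 fold change 1.26, adjusted p = 0.0277).

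CMPK1 was the called gene of 9 measured kinases of nucleoside mono- and diphosphates, and the median log2 fold change of the 9 was -0.06. In the synthesis of deoxynucleotides, 0 of 6 genes were called. The reductase subunit RRM2 had a log2 difference of -0.65 (adjusted p = 0.337), and SHMT1, which supplies folate-bound carbon, had 0.62 (adjusted p = 0.313). The value of RRM2 was -0.30 without SMC replicate 1, and that of SHMT1 was 0.39 without ALI replicate 2. The second probe set of SHMT1 gave -0.09 (adjusted p = 0.715) with all arrays in the lowest 25%. Of the nucleoside transporters, 3 of 7 had a probe set and 0 were called, with 0.29 (adjusted p = 0.416) for SLC28A1 and -0.09 (adjusted p = 0.802) for SLC29A1.

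**Figure D3:**
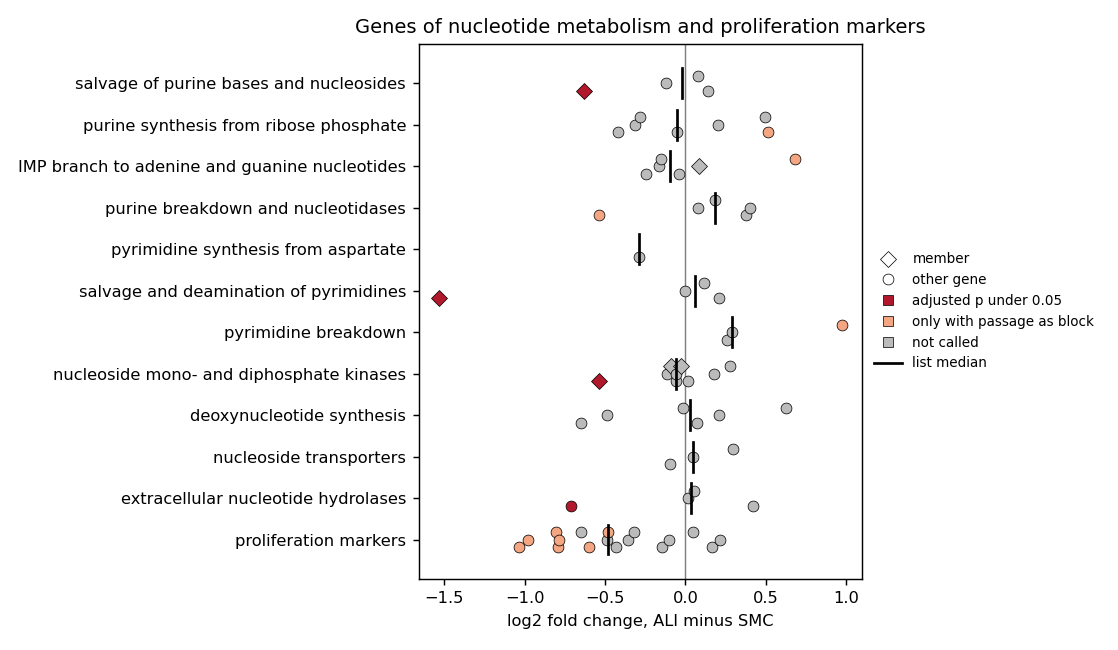
Log2 fold change, ALI minus SMC, of every measured gene (1 point per gene and list) in 11 lists of nucleotide metabolism and 1 list of proliferation markers. Diamonds are the members, black bars the list medians, and the colour gives the call (dark red by limma, orange only with passage as a block, grey not called). Dark red points are CDA, HPRT1, CMPK1 and ENTPD4, all below 0, and 14 of 17 proliferation markers lie below 0.

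Proliferation markers were counted because dividing cells are known to need more nucleotides. Of 17 measured markers, 0 were called by limma, 14 had a log2 fold change below 0, and the median was -0.48 against 0.01 over all genes. With passage as a block 7 were lower and 0 higher, against 3.75% and 2.25% of all genes, and at an unadjusted p under 0.05 these counts were 9 and 0, against 8.91% and 7.1%. The cyclin CCNA2 had -1.04 (adjusted p = 0.0542, with the block 0.00513) and the mitotic kinase AURKA -0.98 (adjusted p = 0.122, with the block 0.0145). CCNA2 was also called without SMC replicate 3 (adjusted p = 0.0159), with only probe sets of a mean above 6 (0.0495) and with an intensity trend (0.0475), and AURKA without SMC replicate 3 (0.0175). The mean log2 value over the 17 markers ranged from 7.66 to 7.92 in the ALI and from 7.91 to 8.57 in the SMC arrays. Within P109, P111 and P113 the ALI mean was below the SMC mean, with differences of -0.659, -0.519 and -0.156, and its part in the lower values of CDA, HPRT1 and CMPK1 was not tested. In RNA of whole cultures fewer cells of a kind and less RNA per cell cannot be told apart.

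Of 14 epithelial markers, 0 were higher and 1, the lectin LGALS4, was lower in ALI cells (log2 fold change -0.995, adjusted p = 0.0408). At an unadjusted p under 0.05, 2 were lower, LGALS4 and VIL1. The adhesion molecule CDH1 was taken by its brighter probe set (-0.10, adjusted p = 0.733), and its dimmer one was called lower (-0.78, adjusted p = 0.0412). The mean over the 14 was 9.35 to 9.44 in ALI and 9.41 to 9.59 in SMC arrays. The 11 markers of fibroblasts and smooth muscle and the 10 of immune cells had 0 called genes (0 at an unadjusted p under 0.05 as well), with medians of 0.07 and 0.11, and 1 of 8 endothelial markers, PECAM1, was lower (-0.50, adjusted p = 0.0448). The mean over the immune markers was 4.47 to 4.54 in ALI and 4.36 to 4.47 in SMC arrays, all ALI arrays being above all SMC arrays, and its part in the results was not tested. For fibroblasts and smooth muscle the means were 5.73 to 5.85 in both groups, and for endothelium 4.742 to 5.003 in ALI and 4.774 to 4.941 in SMC arrays. From these 3 lists, 3, 4 and 3 genes lay in the lowest 25% on all 6 arrays.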

How the data were processed

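IPEC-1 RNA of 3 ALI and 3 SMC cultures was measured on 6 arrays. According to the methods, the authors normalized the arrays by GC-RMA. The software was GCOS 1.1.1 in the submitters' processing notes, whereas the methods name another version of GCOS. The deposited table holds log2 values, 1 column per array, and does not name its normalization. These values were not scaled again. Without the 124 Affymetrix controls, 23999 probe sets entered the fit with limma 3.58.1 in R 4.3.3, with culture type as the only factor and a call at an adjusted p under 0.05. Of the probe sets, 10069 carried 1 gene symbol, 198 several and 13732 none, and only the first were named. For lists, the probe set with the highest mean stood for its gene. The number of arrays limits the precision. The methods' t-test was an alternative.

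Deviations of same-passage arrays from their group means correlated at 0.34, 0.14 and 0.451 across probe sets (P109, P111 and P113). Those of different passages correlated at -0.424 to 0.219. The deviations within a group are not independent of each other, and so neither are these correlations. The pairing rests on the passages in the labels. The correlations cannot decide it for P111, as ALI replicate 2 correlated more with SMC replicate 1 (0.219) than with its own passage. The members, lists and tests were chosen with earlier results of these data known. Named are all members, and for CDA, HPRT1 and CMPK1 the 3 genes most alike. Of each nucleotide list and of the proliferation markers, up to 6 called genes are named. In lists without a call these are the 2 with the largest differences. UCK1, TK2 and DCTD are named outside this rule, beside CDA on its list. The marker genes named as a check of cell type were picked after their values were seen, as were the 3′ and 5′ pairs. The fits were also run on simulated data with independent noise on each array, and the outcome is not reported here.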

Additional observations from a re-analysis of the deposited data

How the results depend on the processing

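The 3 calls among the members kept their direction and passed the test with passage as a replicate block (3 called lower), after quantile normalization, with only probe sets of a mean above 4 or above 6 and with an intensity trend. The methods' t-test at an unadjusted p of at most 0.05 also called 3, and after Benjamini-Hochberg adjustment it called 0. Leaving out 1 array gave 0 to 2 lower calls, and 0 higher calls in each case. Adjusted p-values over the alternatives other than the t-test ranged from 0.00188 to 0.168 for CDA, 0.0203 to 0.142 for HPRT1 and 0.0222 to 0.142 for CMPK1. NME1 turned to 0.0162 after quantile normalization and ranged from -0.16 to 0.12 without single arrays, and the dimmer IMPDH2 probe set (-0.0469 without SMC replicate 3) ranged from -0.05 to 0.12. No probe set of the members was called on passage in any fit. In the wider lists, the block gave 2 genes lower and 3 higher. Without it, and with the mean over the probe sets of a gene, these were 1 and 0. Leaving out 1 array gave 0 to 1 lower and 0 to 1 higher. The lower gene was ENTPD4 without ALI replicate 2 and NT5C3A without ALI replicate 3. The fits without 1 array also held fewer arrays, and the cause of these changes was not tested.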
